A study of Homo sapiens with 13 samples.

Results

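The collagen genes of human ovarian carcinoma cells were followed through 5 groups of RNA-seq libraries from 2 cell lines. A gene was counted as a collagen where it was protein-coding and its symbol read COL, a number, A and a number; COL17A1, which has such a symbol, was left out. This gave 43 genes of the 62703 listed in each count table: 11 fibrillar chains, 8 chains of basement membrane collagens and 24 others.

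SKOV3 and OVCAR3 are established lines from the ascites of patients with ovarian carcinoma. SKOV3 cells carried a control vector, overexpressed RSF1 or overexpressed RSF1delUAB, in 3 libraries each, and the labels list no treatment for them. OVCAR3 cells expressed a scrambled peptide as the control or the UAB peptide, in 2 libraries each, and both OVCAR3 groups received doxycycline at 2000 ng/mL for 6 days. RSF1 is a histone chaperone of the RSF chromatin remodelling complex, and its UAB region binds histone H2A that carries ubiquitin; the labels name RSF1delUAB for the loss of that region. The labels do not say whether the SKOV3 or OVCAR3 derivatives were clones or pools, nor whether libraries of a group came from separate cultures, so p-values measure the spread between these libraries, which may be technical.

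Collagens are secreted or membrane proteins whose alpha chains wind around each other into a stiff helix, with glycine at every turn of the repeat. Fibrillar collagens pack into the banded fibrils of connective tissue, collagen IV builds the sheet on which epithelial cells rest, and the remaining types decorate fibrils, form beaded filaments or networks, or span the cell membrane. Many collagen molecules are heterotrimers, assembled from partner chains. In ovarian carcinoma most fibrillar collagen is known to come from stromal fibroblasts, while carcinoma cells make basement membrane collagens.

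The 6 collagen IV genes lie in 3 pairs, and the members of each pair are read in opposite directions from neighbouring start sites, so that their promoters overlap. The overlapping promoters are shown because the members of a pair are compared throughout. The windows run from 250 bases before to 50 bases after the start site and come from RefSeq on GRCh38.p14, which held a window for 31 of the 43 genes. The COL4A2 window is chr13:110307034-110307333 and overlaps that of COL4A1, the COL4A3 window is chr2:227164374-227164673 and overlaps that of COL4A4, and the COL4A5 window is chrX:108439588-108439887 and overlaps that of COL4A6. Each is written 5′ to 3′ on the plus strand, and capitals mark the bases that also lie in the partner's window.
COL4A2: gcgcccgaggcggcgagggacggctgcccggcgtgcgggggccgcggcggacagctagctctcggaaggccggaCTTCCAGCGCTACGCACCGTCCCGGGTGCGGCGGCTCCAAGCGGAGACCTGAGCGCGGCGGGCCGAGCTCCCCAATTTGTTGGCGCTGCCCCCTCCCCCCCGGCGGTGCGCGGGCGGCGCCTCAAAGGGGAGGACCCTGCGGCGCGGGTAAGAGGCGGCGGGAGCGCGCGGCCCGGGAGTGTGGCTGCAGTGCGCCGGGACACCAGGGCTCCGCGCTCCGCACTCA
COL4A3: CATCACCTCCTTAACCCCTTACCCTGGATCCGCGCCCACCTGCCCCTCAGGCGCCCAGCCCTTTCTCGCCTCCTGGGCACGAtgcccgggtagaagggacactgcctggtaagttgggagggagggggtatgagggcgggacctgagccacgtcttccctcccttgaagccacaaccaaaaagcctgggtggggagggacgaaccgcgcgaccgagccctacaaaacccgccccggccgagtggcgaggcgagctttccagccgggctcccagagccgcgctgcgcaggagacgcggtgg
COL4A5: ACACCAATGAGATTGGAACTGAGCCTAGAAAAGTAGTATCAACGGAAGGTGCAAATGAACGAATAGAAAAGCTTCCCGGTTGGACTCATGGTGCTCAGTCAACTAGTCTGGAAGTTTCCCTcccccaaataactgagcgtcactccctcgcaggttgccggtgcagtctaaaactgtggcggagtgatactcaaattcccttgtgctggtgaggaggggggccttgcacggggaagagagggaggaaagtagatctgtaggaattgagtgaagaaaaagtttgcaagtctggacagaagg

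The start sites of COL4A1 and COL4A2 were 127 bases apart, and their windows shared 226 bases. Those of COL4A5 and COL4A6 were 380 bases apart with 121 shared bases, and those of COL4A3 and COL4A4 were 419 bases apart with 82 shared bases. These distances rest on 1 RefSeq start site per gene and depend on that choice. For COL4A4 the site was chr2:227164205, while the counted gene begins at chr2:227164453. For COL4A2 it was chr13:110307284, while the counted gene begins at chr13:110305812. The windows differed in base content. The COL4A2 window held 45 CG dinucleotides and the COL4A3 window 24, against a median of 14 over 35116 windows. The COL4A5 window held 8. The motif GGGCGG, searched on both strands, matched 1 time in the COL4A2 window, 2 times in that of COL4A3 and 0 times in that of COL4A5, and 45.0% of all windows held it. The motif CCAAT, also on both strands, matched 1, 0 and 2 times in the same order, with 34.6% of all windows holding it. TATAAA was in none of these 3 windows and in 11.5% of all windows. In the partner windows of COL4A1, COL4A4 and COL4A6, in that order, GGGCGG matched 2, 0 and 0 times. There CCAAT matched 1, 0 and 3 times, TATAAA matched 0 times in each, and CG dinucleotides numbered 45, 29 and 7.

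The libraries held 15194678 to 18748009 counted reads in SKOV3 and 18160558 to 24026993 in OVCAR3. Levels are given as CPM, in which a gene's counts are divided by the size of its library, with library sizes scaled by TMM within a line. RSF1 itself rose from a mean of 43.9 CPM in SKOV3 control cells to 717 CPM with RSF1 and 487 CPM with RSF1delUAB. In SKOV3, RSF1 replicate 1 stood apart: the chi-square of its counts against the other RSF1 libraries was 13.9 and 15.8 per degree of freedom, against 3.85 between those 2 libraries, and 2.25 to 3.36 within the other SKOV3 groups. It was 15 and 12.6 within the OVCAR3 groups. Epithelial carcinoma markers (8 genes, among them PAX8, KRT7 and KRT8) summed to 1154 to 1201 CPM in SKOV3 control, 1496 to 1655 CPM with RSF1 and 1366 to 1445 CPM with RSF1delUAB, without overlap. The single markers did not all move with this sum. Of the 6 above the count filter in every group, 3 were higher, 1 was lower and 2 did not pass with RSF1. With RSF1delUAB 3 of them were higher and 3 lower. In OVCAR3 the epithelial sum was 7950.0 to 8666 CPM, and MUC16 was at 0.188 CPM or less in every SKOV3 library. Of 9 fibroblast markers without collagens, 7 were tested in SKOV3, and the sum of the 9 was 15.1 to 15.8 CPM in control, 300.5 to 312 CPM with RSF1 and 358 to 363 CPM with RSF1delUAB. Of these 7, all were higher with RSF1, while 5 were higher and 1 lower with RSF1delUAB. Among all genes tested, 34.3% were higher and 32.9% lower with RSF1, and 34.5% and 32.1% with RSF1delUAB. Only FBLN1 and MFAP5 were above the count filter in control. Both were higher with each construct, with median log2 fold changes of 3.87 with RSF1 and 4.27 with RSF1delUAB. The rest passed through construct groups only, so their rises follow from that filter. LUM went from 0.590 CPM in control to 21.3 and 80.4 CPM, DCN from 0.0661 to 4.09 and 8.84 CPM, and PDGFRA from 0.130 to 1.34 and 2.42 CPM. POSTN was at 0.109 CPM in control, 72.4 CPM with RSF1 and 0 counts with RSF1delUAB, and PDGFRB was at 0 counts in control and with RSF1delUAB. In OVCAR3 the fibroblast sum was 121 to 147 CPM with the scrambled peptide against 99.6 to 105 CPM with the UAB peptide, where LUM was at 0 counts. Immune markers summed to 0.793 to 0.861 CPM in SKOV3 control and to 1.78 to 2.32 CPM with the constructs, and endothelial markers to 5.35 to 7.82 CPM in control and 1.13 CPM or less with either construct. The part of other cell types in the collagen values was not tested.

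Both lines made collagen RNA of all classes, and the endostatin precursor COL18A1 led in every group once levels were divided by exon length. In SKOV3 control cells the collagens summed to 1298 ± 75.1 CPM (SD, n = 3), of which basement membrane chains made 890.4 ± 44.8 CPM, other chains 318 ± 23.0 CPM and fibrillar chains 89.1 ± 7.85 CPM. Of the 43 genes, 18 had a mean of at least 1 CPM in these cells and 5 were at 0 counts in all 3 libraries. In RPKM, which is CPM divided by the exon length in kilobases, the order was COL18A1 at 37.8, COL7A1 at 17.7, COL4A2 at 16.8 and COL4A1 at 10.6. COL7A1 forms the anchoring fibrils that tie basement membranes to the tissue beneath. Of these 4 genes, COL7A1 and COL4A2 differed by less than the SD of COL7A1, 1.69 RPKM.

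OVCAR3 cells with the scrambled peptide carried a different set. Their collagens summed to 1917 ± 64.2 CPM (SD, n = 2), and COL18A1 alone took 45.0% of the counts, against 24.7% in SKOV3 control. COL18A1 had 102 RPKM, followed by COL26A1 at 40.7 and COL9A2 at 27.4 RPKM. COL9A2 is a chain of collagen IX, which coats the fibrils of cartilage. The lines were in separate tables and differed in doxycycline, so levels across them are a description only. COL26A1 was at 122 and 130 CPM in the 2 scrambled peptide libraries and at 0.0661 CPM or less in the SKOV3 control libraries. COL9A1 was at 22.4 and 15.6 CPM in OVCAR3 and at 0 counts in all 9 SKOV3 libraries. In the other direction, COL5A1 was at 59.0 to 71.2 CPM in SKOV3 control and 0.299 and 0.690 CPM in OVCAR3, and COL7A1 at 176 to 213 CPM against 7.55 and 7.38 CPM. COL6A5 and COL22A1 had 0 counts in all 13 libraries.

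**Figure D1:**
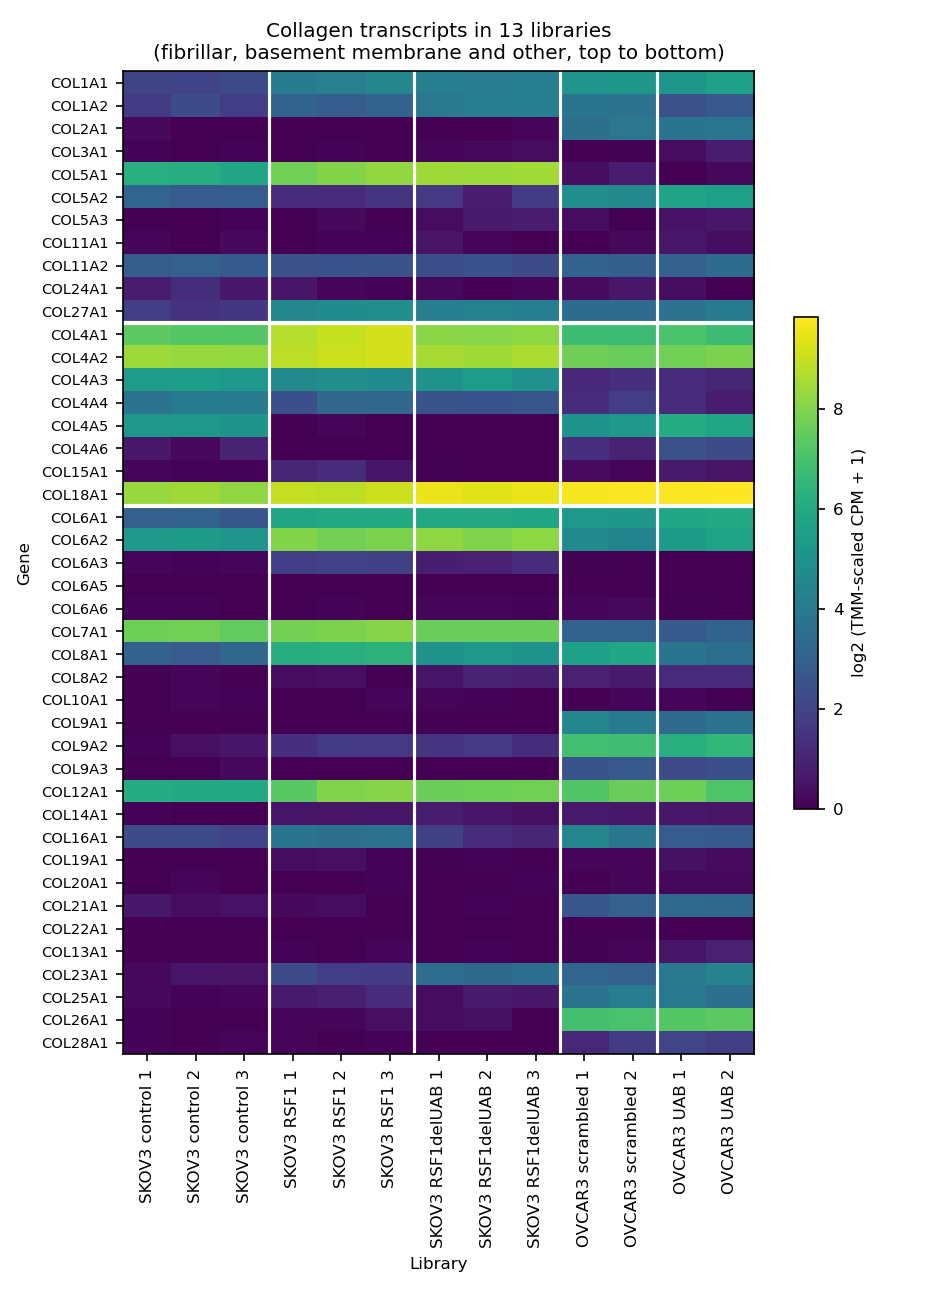
Level of each of the 43 collagen genes (rows, by class from top to bottom) in the 13 libraries (columns), as log2 of TMM-scaled CPM plus 1. COL4A5 is dark in all RSF1 and RSF1delUAB libraries, COL5A1 is bright in SKOV3, and COL26A1 and COL9A2 are bright in OVCAR3.

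Both RSF1 constructs in SKOV3 were then compared with the control vector. The class sums were higher in every construct library than in every control library. Fibrillar counts were 89.1 ± 7.85 CPM in control, 317 ± 49.7 CPM with RSF1 and 406 ± 11.8 CPM with RSF1delUAB (SD, n = 3 each). Basement membrane counts were 890.4, 1560 and 1422 CPM, with SDs of 44.8, 157 and 64.3 CPM. The other chains stood at 318, 863 and 787 CPM, with SDs of 23.0, 78.0 and 18.6 CPM. These sums weigh long and abundant genes most, and the single genes below did not all move the same way.

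**Figure D2:**
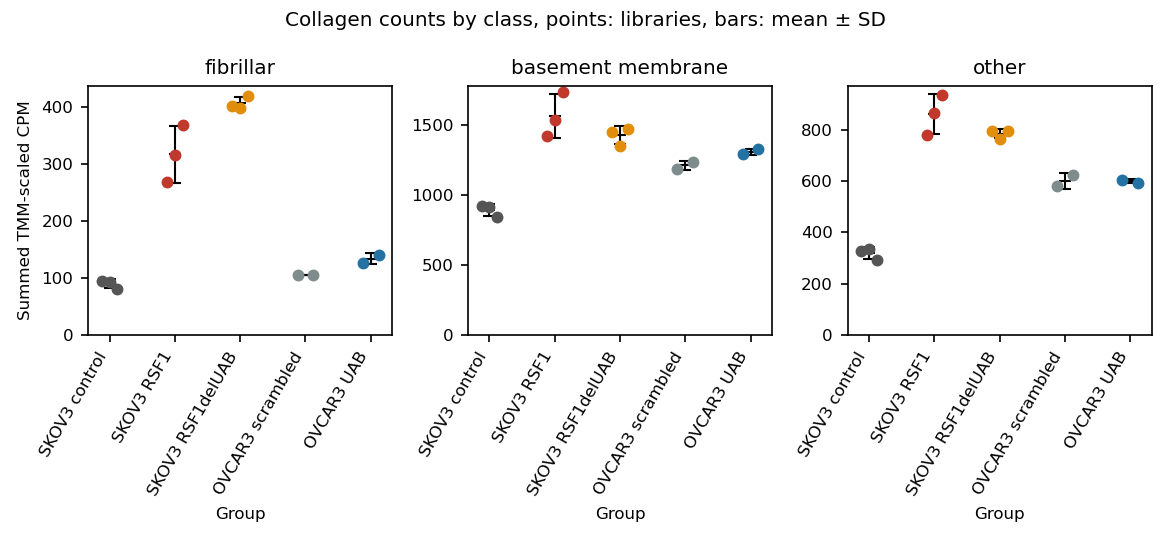
Summed TMM-scaled CPM of the fibrillar, basement membrane and other collagen genes in each library (points), with mean and SD (bars) per group; each y axis starts at 0. In all 3 classes the RSF1 and RSF1delUAB libraries lie above the 3 control libraries.

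In SKOV3, 22 of the 43 genes passed the count filter, and 21 were too low to be tested. Of the 22, 17 passed it in all 3 groups. COL4A5 passed only through control, COL25A1 only through RSF1, and COL6A3, COL9A2 and COL23A1 only through the 2 construct groups; a gene that passed only through the group where it is high had to differ, so they are left out of the counts here and given as values further on. With RSF1, 13 of those 17 genes were higher than in control and 4 were lower, in edgeR's quasi-likelihood test at a Benjamini-Hochberg adjusted p below 0.05. Among all 16735 genes tested, 34.3% were higher and 32.9% lower, 67.3% in either direction. The median log2 fold change was 1.69 for the 17 genes and 0.02 for all genes. The values for all genes, here and in the other comparisons, were not limited to genes above the filter in every group. With RSF1delUAB, 11 of the 17 were higher, 5 were lower and COL7A1 did not pass, where 34.5% of all genes were higher and 32.1% lower, 66.6% in either direction, and the median of the 17 was 1.19. Adding the 5 genes that passed through some groups only gave 17 higher and 5 lower of 22 with RSF1, and 15 and 6 with RSF1delUAB. Since the filter selected these 5, the larger counts add no support. Without RSF1 replicate 1, the 22 calls of RSF1 against control stayed as they were. The 2 constructs share their control libraries, so their folds are set side by side without a comparison of the lists.

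Among the fibrillar genes, 6 were tested, and in each construct 4 rose and 2 fell. COL1A1 and COL1A2 encode the chains of collagen I, the main collagen of fibrous tissue. COL1A1 was at 3.04, 2.91 and 3.61 CPM in the control libraries, 15.5, 18.6 and 22.6 CPM with RSF1, and 17.94, 16.5 and 17.96 CPM with RSF1delUAB. All 6 construct libraries lay above all controls, and the log2 fold changes were 2.56 ± 0.16 (SE) with RSF1 and 2.45 ± 0.16 with RSF1delUAB (adjusted p = 1.58e-11 and 3.13e-11). COL1A2 was at 2.31, 3.78 and 2.45 CPM in control, 7.74, 6.21 and 7.47 CPM with RSF1, and 14.3, 17.7 and 18.1 CPM with RSF1delUAB. The 3 groups did not overlap, with RSF1delUAB highest, and the rises were 1.33 ± 0.19 and 2.55 ± 0.17 on the log2 scale (adjusted p = 3.98e-06 and 8.24e-11).

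COL5A1, a chain of the collagen V that starts and narrows collagen I fibrils, was the most abundant fibrillar gene per length in SKOV3. Its libraries held 71.2, 69.0 and 59.0 CPM in control, 216, 257 and 302 CPM with RSF1, and 345, 337 and 358 CPM with RSF1delUAB. No library overlapped another group, and the log2 rises were 1.96 ± 0.10 and 2.38 ± 0.10 (adjusted p = 6.95e-13 and 3.49e-14). Its partner chain COL5A2 moved the other way. COL5A2 was at 8.26, 6.09 and 6.32 CPM in control, 1.37, 1.27 and 1.88 CPM with RSF1, and 2.07, 0.750 and 2.21 CPM with RSF1delUAB. Every construct library lay below every control, with log2 fold changes of -2.19 ± 0.28 and -2.03 ± 0.27 (adjusted p = 8.7e-07 and 1.45e-06). COL3A1, which lies beside COL5A2 on chromosome 2 and encodes the only chain of collagen III, was not tested, with 12 counts over the 9 SKOV3 libraries.

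COL27A1, a fibrillar collagen of cartilage, had the largest fibrillar rise. It was at 2.58, 1.72 and 2.00 CPM in control, 22.5, 26.4 and 28.1 CPM with RSF1, and 17.3, 19.3 and 17.8 CPM with RSF1delUAB. The groups did not overlap, and the log2 rises were 3.61 ± 0.15 and 3.11 ± 0.16 (adjusted p = 4.58e-14 and 6.83e-13). COL11A2, a chain of the cartilage collagen XI, was slightly lower in both, at 6.52 ± 0.577 CPM in control against 4.63 ± 0.139 and 4.12 ± 0.446 CPM (SD, n = 3). Its log2 fold changes were -0.49 ± 0.16 and -0.66 ± 0.16 (adjusted p = 0.0107 and 0.00121). The fibroblast marker sums given above moved with the 4 fibrillar rises, and their part was not tested. The 5 untested fibrillar genes (COL2A1, COL3A1, COL5A3, COL11A1 and COL24A1) had 5 to 57 counts over the 9 SKOV3 libraries, of which COL24A1 had 41 in control, 11 with RSF1 and 5 with RSF1delUAB. COL5A3 went the other way, with 1, 3 and 27 counts in the same order.

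The basement membrane class was split. Of the 5 genes above the filter in every group, 3 were higher and 2 lower in each construct, with median log2 fold changes of 0.64 with RSF1 and 0.20 with RSF1delUAB, and COL4A5, which passed through control only, was lower in both. COL4A1 and COL4A2 form the collagen IV found in nearly all basement membranes. COL4A1 was at 166, 149.6 and 149.6 CPM in control, 433, 497 and 568 CPM with RSF1, and 278, 276 and 289.6 CPM with RSF1delUAB. All groups were separate, with RSF1 highest, and the log2 rises were 1.69 ± 0.08 and 0.86 ± 0.08 (adjusted p = 4.17e-13 and 1.1e-08). COL4A2 was at 338, 322 and 311 CPM in control, 471, 530.5 and 582 CPM with RSF1, and 372, 346 and 395 CPM with RSF1delUAB. It was again separate between groups, but its rises were smaller, 0.71 ± 0.07 and 0.20 ± 0.07 (adjusted p = 5.38e-08 and 0.0248). The call of COL4A2 with RSF1delUAB was lost without RSF1delUAB replicate 1 or 3 or control replicate 2 or 3, with log2 fold changes of 0.15 to 0.20 and adjusted p of 0.0572 to 0.124. Both genes lie on chromosome 13, where the median log2 fold change of 296 tested genes was -0.60 with RSF1 and -0.70 with RSF1delUAB.

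COL4A3 and COL4A4 encode chains of the collagen IV of kidney, lung and inner ear membranes. COL4A3 was at 41.5, 44.4 and 37.0 CPM in control, 23.8, 28.3 and 25.6 CPM with RSF1, and 32.3, 41.0 and 30.2 CPM with RSF1delUAB. The RSF1 libraries lay below all controls, while 1 RSF1delUAB library fell within the control range. The log2 fold changes were -0.66 ± 0.11 with RSF1 and -0.25 ± 0.11 with RSF1delUAB (adjusted p = 2.17e-05 and 0.0456). The RSF1delUAB call was lost with DESeq2 (adjusted p = 0.0538), with upper quartile scaling, with library totals, with a minimum count of 30, and without RSF1delUAB replicate 1 or 3 or control replicate 1 or 2 (-0.16 to -0.24). COL4A4 was at 12.3, 15.1 and 15.5 CPM in control, 4.23, 8.62 and 8.47 CPM with RSF1, and 4.72, 4.56 and 5.23 CPM with RSF1delUAB. All 6 construct libraries lay below all controls, with log2 fold changes of -1.0 ± 0.19 and -1.56 ± 0.19 (adjusted p = 7.96e-05 and 5.12e-07). An exon of the antisense gene MFF-DT covers 6.82% of the exon bases of COL4A3, and the use of strand in the counting is not given in the sources used here, so its level is uncertain to that extent.

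COL4A5 and COL4A6 on the X chromosome encode the chains of a collagen IV found under many epithelia, and COL4A5 also joins the chains of COL4A3 and COL4A4 in the kidney. COL4A5 spans chrX:108439838-108697545 and COL4A6 chrX:108155607-108439497 in the tables, whose positions overlap those of GENCODE 29 on GRCh38. COL4A5 was at 37.3, 36.6 and 33.3 CPM in control, 0, 0.127 and 0 CPM with RSF1, and 0 CPM in all 3 RSF1delUAB libraries. No construct library came near the controls: 1632 counts in control stood against 2 with RSF1 and 0 with RSF1delUAB. The control level was 839.9 times that with RSF1 (95% counting interval 232 to 6942). With RSF1delUAB, COL4A5 was at least 624-fold lower, taking 3 counts over the group. COL4A5 passed the filter through control only, so these folds are given as values without a test. Without RSF1 replicate 2, which held both counts, COL4A5 was at 0 counts with RSF1 too.

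COL4A6 was low in control, at 0.594, 0.199 and 0.968 CPM, and had 0 counts in all 6 construct libraries. It was not tested; its 27 control counts put it at least 9.26-fold lower with RSF1 and 10.3-fold lower with RSF1delUAB. Within 2 megabases on either side of the pair, 18 protein-coding genes were tested. Of these, 6 were higher and 11 lower with RSF1, against 34.3% and 32.9% of all genes. With RSF1delUAB 6 were higher and 8 lower, against 34.5% and 32.1%. These counts include RADX, RNF128 and RTL9, which passed the count filter through control. They also include CLDN2, which passed through the constructs and had 9 counts in control, 33 with RSF1 and 294 with RSF1delUAB. The calls of these genes follow from that filter, so the counts of neighbours are a description only. ATG4A, the tested gene next to COL4A6, was at 11.3 CPM in control, 5.25 CPM with RSF1 and 3.53 CPM with RSF1delUAB. NXT2, the next tested gene after COL4A5, was at 24.12, 20.76 and 21.97 CPM in the same order. Both neighbours were thus still detected with either construct. RADX, more distant, had 513 counts in control and 0 with either construct. RNF128, beside RADX, had 142 counts in control, 1 with RSF1 and 0 with RSF1delUAB. TBC1D8B, the next tested gene after RNF128, rose from 9.76 CPM to 12.98 and 16.36 CPM. RTL9, on the far side of NXT2, had 96, 24 and 13 counts in control, with RSF1 and with RSF1delUAB. The count tables hold no measure of DNA copies or chromatin at the locus.

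**Figure D3:**
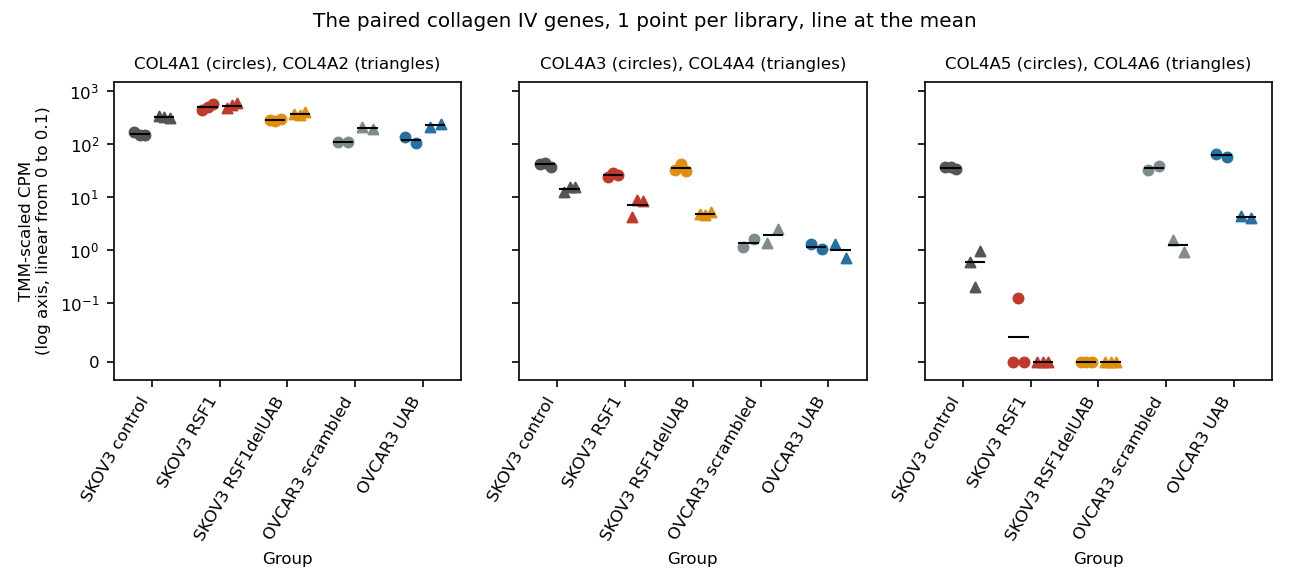
Level of the 6 collagen IV genes in each library (points, with a line at the group mean), drawn as the 3 pairs that share a promoter region; the y axis is TMM-scaled CPM on a log scale, linear between 0 and 0.1. COL4A5 and COL4A6 fall to 0 or nearly 0 in the RSF1 and RSF1delUAB libraries, while COL4A1 and COL4A2 are highest with RSF1.

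COL18A1 encodes the basement membrane proteoglycan whose end is cut off as endostatin. It was at 322, 346 and 292 CPM in control, 488, 465 and 545 CPM with RSF1, and 761, 682 and 749 CPM with RSF1delUAB. The 3 groups were separate, with log2 rises of 0.64 ± 0.07 and 1.19 ± 0.07 (adjusted p = 1.87e-07 and 1.95e-11). SLC19A1, read from the opposite strand, covers 18.5% of its exon bases, so some of these reads may belong to that gene. COL15A1, the related collagen XV, was not tested, with 4 counts in control, 46 with RSF1 and 1 with RSF1delUAB.

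Of the other collagens, 6 were above the filter in every group. These 6 were higher with RSF1, while with RSF1delUAB 4 rose, COL16A1 fell and COL7A1 did not pass. A further 4 (COL6A3, COL9A2, COL23A1 and COL25A1) passed through construct groups only, and their higher values follow from that filter. Collagen VI forms beaded filaments at the cell surface from the chains of COL6A1, COL6A2 and COL6A3. COL6A1 was at 7.20, 7.42 and 5.29 CPM in control, 56.3, 61.9 and 63.1 CPM with RSF1, and 61.7, 60.4 and 55.2 CPM with RSF1delUAB. The construct libraries lay far above control and overlapped each other, with log2 rises of 3.19 ± 0.11 and 3.15 ± 0.11 (adjusted p = 1.75e-15 and 1.79e-15). COL6A2 was at 38.5, 40.7 and 33.8 CPM in control, 255, 222 and 241 CPM with RSF1, and 298, 253 and 290.4 CPM with RSF1delUAB. Its rises were 2.67 ± 0.09 and 2.90 ± 0.09 (adjusted p = 6.9e-16 and 2.14e-16), and again no construct library overlapped control. COL6A3 was nearly absent in control, at 0.132, 0.0662 and 0.129 CPM, and reached 2.54, 2.73 and 2.64 CPM with RSF1 and 0.796, 0.865 and 1.35 CPM with RSF1delUAB. Its log2 fold changes, which rest on 5 counts in control and follow from that filter, were 4.50 ± 0.46 and 3.10 ± 0.53. COL6A1 and COL6A2 lie side by side on chromosome 21, as does COL18A1 nearby, where the median log2 fold change of 175 tested genes was -0.39 with RSF1 and -0.34 with RSF1delUAB.

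COL8A1, a chain of the hexagonal network under endothelia, was at 7.53, 6.09 and 9.16 CPM in control, 69.5, 73.9 and 79.4 CPM with RSF1, and 32.1, 36.8 and 31.9 CPM with RSF1delUAB. The 3 groups were separate, with log2 rises of 3.29 ± 0.12 and 2.14 ± 0.12 (adjusted p = 2.45e-15 and 3.24e-12). COL12A1, which bridges collagen I fibrils, was at 68.1, 63.1 and 63.1 CPM in control, 160.1, 249 and 268 CPM with RSF1, and 195, 204 and 211 CPM with RSF1delUAB. All construct libraries lay above control, and the RSF1 value that is far below the other two belongs to the library that stood apart. The rises were 1.80 ± 0.13 and 1.65 ± 0.13 on the log2 scale (adjusted p = 1.18e-10 and 4.13e-10).

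COL16A1, another fibril-associated collagen, went in opposite directions. It was at 3.70, 3.64 and 2.90 CPM in control, 12.82, 11.54 and 11.98 CPM with RSF1, and 2.60, 1.38 and 1.11 CPM with RSF1delUAB. The RSF1 libraries lay above and the RSF1delUAB libraries below all controls, with log2 fold changes of 1.83 ± 0.20 and -0.98 ± 0.25 (adjusted p = 7.42e-08 and 0.00176). COL23A1, a transmembrane collagen, was at 0.198, 0.464 and 0.452 CPM in control, 3.58, 2.47 and 2.38 CPM with RSF1, and 10.7, 8.88 and 10.9 CPM with RSF1delUAB. It passed the filter through the construct groups only, so its log2 fold changes against control, 2.89 ± 0.33 and 4.75 ± 0.28, are given as values.

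The other tested members were COL7A1, COL9A2 and COL25A1. COL7A1 was at 197 ± 18.8 CPM in control and 241 ± 23.4 CPM with RSF1 (SD, n = 3), a log2 difference of 0.30 ± 0.08 (adjusted p = 0.00208), and at 193 ± 1.24 CPM with RSF1delUAB, a difference of -0.02 ± 0.08 (adjusted p = 0.8). COL9A2, which passed the filter through the constructs only, had log2 fold changes of 2.66 ± 0.44 and 2.52 ± 0.44 from 14 counts in control. These became 3.27 and 3.12 without control replicate 3. COL25A1, a membrane collagen of neurons, passed the filter through RSF1 only. It had 6 counts in control and 45 with RSF1, a log2 fold change of 2.79 ± 0.61 that follows from that filter. With RSF1delUAB it had 25 counts, and its log2 fold change of 1.81 ± 0.67 (adjusted p = 0.0225) lost its call without RSF1delUAB replicate 2 or 3 or control replicate 2 or 3 (1.51 to 1.80, adjusted p of 0.0599 to 0.088). The fibroblast and epithelial marker sums were also higher with each construct, though not every single marker was. The part of these markers was not tested.

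Of the 14 untested other collagens, 4 had at least 20 counts over the 9 libraries, a limit chosen after the values were seen. COL8A2 had 2 counts in control, 9 with RSF1 and 39 with RSF1delUAB. COL14A1, a fibril-associated collagen, had 1, 22 and 27 counts in the same order, COL26A1 had 1, 9 and 11, and COL21A1 had 19, 7 and 1. The remaining 10 had 0 to 12 counts over the 9 libraries.

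**Figure D4:**
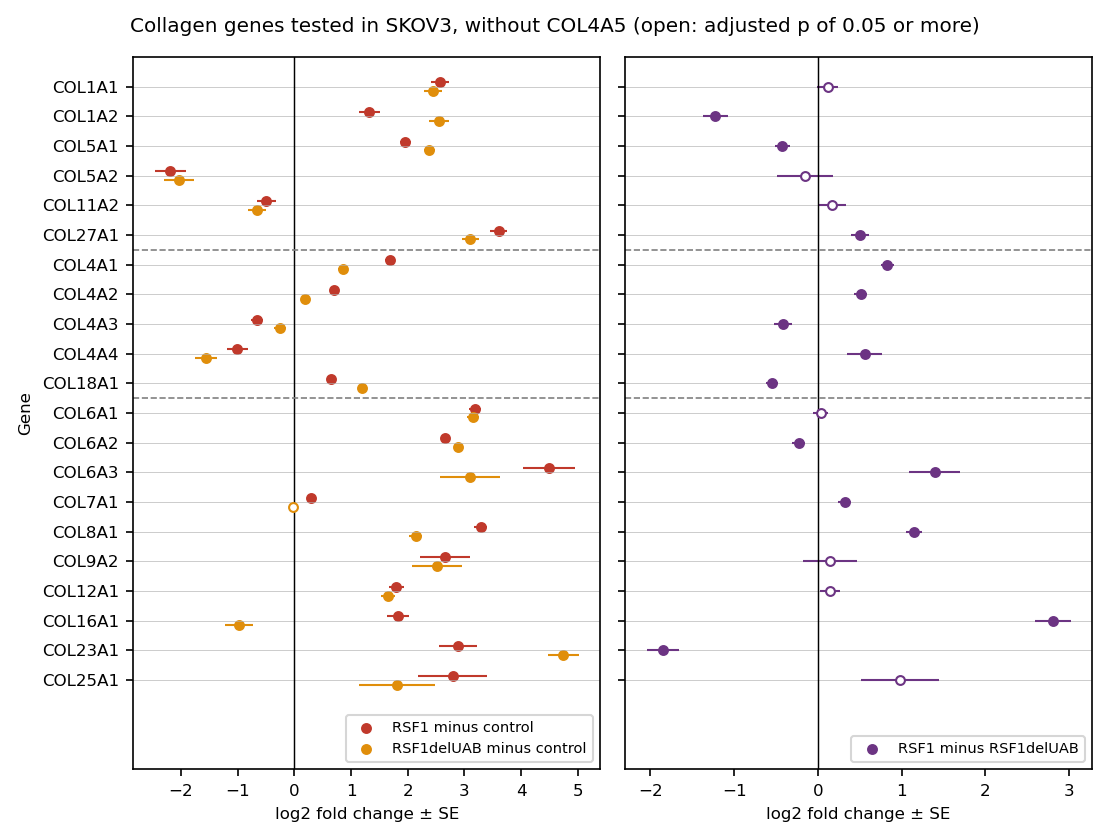
Log2 fold change with SE of the tested collagen genes in SKOV3, by class from top to bottom, for each construct against control (left) and for RSF1 against RSF1delUAB (right). COL4A5 is left out because it is at or near 0 counts in both constructs; filled points have an adjusted p below 0.05, and COL16A1 lies on opposite sides of 0 in the left panel.

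RSF1 was compared with RSF1delUAB, the form that lacks the UAB region. RSF1 RNA itself differed between these cells, at 717 and 487 CPM, so the region and the amount of RSF1 RNA cannot be told apart. Of the 17 collagens above the filter in every group, 7 were higher with RSF1, 5 were lower and 5 did not pass, against 18.5% higher and 20.2% lower among all genes, 38.6% in either direction. The median log2 difference was 0.15 for the 17 genes and 0.00 for all genes. Over all 22 tested collagens, 8 were higher, 6 lower and 8 did not pass. By class, and over the 17, 1 fibrillar gene was higher and 2 lower of 6, 3 basement membrane genes were higher and 2 lower of 5, and 3 others were higher and 1 lower of 6. Without RSF1 replicate 1, the counts over all tested collagens were 9 higher and 8 lower. That fit let more genes past the filter, 17299 against 16735. Of the 22 collagens, 21 kept their side of the threshold and 1, COL12A1, gained a call, so the added lower calls were in collagens not tested before.

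Higher with RSF1 by the largest margin were COL16A1 (2.81 ± 0.21, adjusted p = 2.1e-09) and COL6A3 (1.40 ± 0.31, adjusted p = 0.00106), as log2 differences with SE. COL8A1 and COL4A1 followed at 1.14 ± 0.10 and 0.83 ± 0.08 (adjusted p = 8.2e-09 and 6.19e-08). In each of these genes all RSF1 libraries lay above all RSF1delUAB libraries in the values above. Lower with RSF1 were COL23A1 (-1.85 ± 0.19, adjusted p = 1.76e-07) and COL1A2 (-1.22 ± 0.15, adjusted p = 1.86e-06). COL18A1 and COL5A1 were lower by less, at -0.55 ± 0.07 and -0.42 ± 0.09 (adjusted p = 4.93e-06 and 0.00102), and these 4 genes did not overlap either.

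Both chains of the major collagen IV were higher with RSF1, COL4A2 by 0.51 ± 0.07 (adjusted p = 1.42e-05). COL4A3 and COL4A4 went apart, at -0.41 ± 0.11 and 0.56 ± 0.21 (adjusted p = 0.00505 and 0.0374). The COL4A3 call was lost without RSF1delUAB replicate 2 (-0.27, adjusted p = 0.0536). The COL4A4 call was lost with limma-voom (0.49, adjusted p = 0.103), with only the 2 groups in the fit (0.57, adjusted p = 0.06), and without RSF1 replicate 2 or 3 or any of the RSF1delUAB replicates (0.41 to 0.62, adjusted p of 0.0543 to 0.177). COL6A2 was at -0.23 ± 0.08 (adjusted p = 0.0233) with overlapping libraries, and its call was lost with upper quartile scaling and without RSF1 replicate 2 or RSF1delUAB replicate 1 or 3 (-0.17 to -0.20).

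Smaller calls were COL27A1 at 0.50 ± 0.11 and COL7A1 at 0.32 ± 0.08 (adjusted p = 0.0011 and 0.00238). The partner chain COL1A1 did not pass (0.12 ± 0.12, adjusted p = 0.499), nor did COL6A1 (0.03 ± 0.09, adjusted p = 0.802). COL12A1 did not pass either, at 0.15 ± 0.12 (adjusted p = 0.353), but without RSF1 replicate 1 it was higher with RSF1 by 0.34 (adjusted p = 4.31e-07). COL5A2, COL11A2, COL9A2, COL25A1 and COL4A5 made up the rest of the 8 that did not pass.

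The ratio of partner chains within a library, each divided by its exon length, was compared because the chains are assembled together. COL4A1 over COL4A2 was 0.645, 0.610 and 0.633 in control, 1.21, 1.23 and 1.28 with RSF1, and 0.981, 1.05 and 0.964 with RSF1delUAB. The groups did not overlap, and the ratio was highest with RSF1. Which chain was the more abundant depends on the exon lengths used, 14662 bases for COL4A1 and 19271 for COL4A2. In CPM, without the lengths, COL4A1 stayed below COL4A2 with RSF1, at 499 against 528. The same held in control, at 155 against 324 CPM. In OVCAR3 the ratio was 0.675 and 0.743 with the scrambled peptide and 0.822 and 0.590 with the UAB peptide, which overlapped. COL1A1 over COL1A2 was 1.42 ± 0.442 in control, 3.21 ± 0.702 with RSF1 and 1.27 ± 0.208 with RSF1delUAB (SD, n = 3), and in OVCAR3 3.34 ± 0.365 and 10.2 ± 0.848 (SD, n = 2). COL6A1 over COL6A2 was below 1 in SKOV3, at 0.169 ± 0.0158 in control and 0.245 ± 0.0287 with RSF1, and above 1 in OVCAR3, at 1.55 ± 0.143 and 1.29 ± 0.133. COL5A1 over COL5A2 went from 6.40 ± 0.919 in control to 114 ± 16.6 with RSF1 and 170.2 ± 108 with RSF1delUAB. An exact permutation test, two-sided, cannot go below p = 0.1 with 3 libraries against 3 or below 0.333 with 2 against 2, so none of the 16 ratio comparisons could pass, and the smallest adjusted p was 0.178.

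In OVCAR3 the UAB peptide was compared with the scrambled peptide. RSF1 RNA was at 635 CPM with the scrambled peptide against 686 CPM with the UAB peptide and did not pass (0.11 ± 0.16, adjusted p = 0.724). The collagens summed to 1917 ± 64.2 CPM with the scrambled peptide against 2039.7 ± 23.8 CPM with the UAB peptide (SD, n = 2). Of the 43 genes, 30 passed the count filter, of which 7 were higher with the UAB peptide, 5 were lower and 18 did not pass. Among all 18359 genes tested, 5.45% were higher and 5.46% lower, 10.9% in either direction, and the median log2 fold change was 0.15 for the tested collagens and 0.01 for all genes. COL14A1 and COL13A1 passed the filter through 1 group only, the scrambled and the UAB peptide in turn; without them 6 of 28 were higher, 5 lower and 17 did not pass. By class, and over the 28, 1 fibrillar gene rose and 1 fell of 6. Of 7 basement membrane genes 2 rose and 5 did not pass, and of 15 others 3 rose and 4 fell.

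The fibrillar changes were in COL1A2 and COL5A2. COL1A2 was at 13.3 and 12.2 CPM with the scrambled peptide against 4.50 and 5.34 CPM with the UAB peptide. The groups did not overlap, and the log2 fold change was -1.37 ± 0.20 (adjusted p = 0.000548). Its partner COL1A1, at 34.2 and 36.5 CPM against 36.1 and 48.1 CPM, did not pass (0.25 ± 0.16, adjusted p = 0.36). COL5A2 was at 27.0 and 23.8 CPM with the scrambled peptide against 52.2 and 45.8 CPM with the UAB peptide, a separate rise of 0.95 ± 0.15 (adjusted p = 0.000802). COL5A1 was low here, with 26 counts over the 4 libraries, and COL3A1 had 19; neither was tested.

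In the basement membrane class the X-linked pair rose. COL4A5 was at 31.6 and 38.3 CPM with the scrambled peptide against 64.8 and 56.3 CPM with the UAB peptide. COL4A6 was at 1.54 and 0.906 CPM and then 4.45 and 3.92 CPM. Neither gene overlapped between groups, and the log2 fold changes were 0.79 ± 0.15 and 1.77 ± 0.35 (adjusted p = 0.00323 and 0.00393). COL4A1, at 108 and 107 CPM against 132 and 106 CPM, did not pass (0.15 ± 0.14, adjusted p = 0.575), nor did COL4A2, at 211 and 189 CPM against 212 and 236 CPM (0.16 ± 0.13, adjusted p = 0.497). COL18A1, the most abundant collagen of these cells, was at 831 and 894 CPM against 874 and 918 CPM, a difference of 0.06 ± 0.12 (adjusted p = 0.835). COL4A3 and COL4A4 were at 2.46 CPM or less in each of the 4 libraries and did not pass.

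Among the other collagens above the filter in both groups, COL8A1 had the largest change. It was at 49.3 and 57.1 CPM with the scrambled peptide against 13.3 and 10.7 CPM with the UAB peptide, a fall to non-overlapping levels with a log2 fold change of -2.15 ± 0.17 (adjusted p = 2.11e-06). COL16A1 was at 21.0 and 13.5 CPM against 6.31 and 5.83 CPM, and fell by 1.50 ± 0.22 on the log2 scale (adjusted p = 0.000556). Both collagen VI chains that these cells express rose. COL6A1 was at 37.4 and 35.8 CPM against 57.5 and 63.7 CPM (0.73 ± 0.14, adjusted p = 0.0033). COL6A2 was at 25.0 and 20.9 CPM against 40.1 and 51.5 CPM (1.00 ± 0.16, adjusted p = 0.00118), while COL6A3 had 1 count in all 4 libraries. COL23A1 was at 8.37 and 7.07 CPM against 14.3 and 19.7 CPM, a rise of 1.13 ± 0.20 (adjusted p = 0.00208), again without overlap.

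Of the 3 collagen IX chains, 2 were called lower. COL9A1 was at 22.4 and 15.6 CPM with the scrambled peptide against 9.98 and 12.3 CPM with the UAB peptide (-0.77 ± 0.20, adjusted p = 0.0227), and COL9A2 at 117 and 114 CPM against 70.7 and 89.5 CPM (-0.53 ± 0.14, adjusted p = 0.0297). The groups did not overlap in either gene, but both calls were lost without scrambled peptide replicate 1 (adjusted p = 0.234 and 0.103) or UAB peptide replicate 1 (0.0755 and 0.285). The fold changes without these libraries were -0.49 and -0.62 for COL9A1 and -0.50 and -0.36 for COL9A2, so that 3 rather than 5 collagens were lower without either library. The other chain of collagen IX, COL9A3, did not pass (-0.38 ± 0.25, adjusted p = 0.372). COL13A1, a membrane collagen of the neuromuscular junction, passed the filter through the UAB peptide group only, so its rise follows from that filter. It had 3 counts with the scrambled peptide and 26 with the UAB peptide, a ratio of 10.4 (95% counting interval 3.19 to 53.8). Its call was lost without scrambled peptide replicate 1 or 2, with log2 fold changes of 2.89 and 3.81. COL21A1 did not pass (0.58 ± 0.22, adjusted p = 0.108) except without scrambled peptide replicate 2 (0.81, adjusted p = 0.0345).

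The other 10 tested genes that did not pass were COL2A1, COL11A2, COL27A1, COL7A1, COL8A2, COL12A1, COL14A1, COL25A1, COL26A1 and COL28A1, with log2 fold changes between -0.29 and 0.80. Of these, the abundant COL26A1 was at 122 and 130 CPM against 151 and 163 CPM (0.31 ± 0.13, adjusted p = 0.143), and COL12A1 was at 145 and 191 CPM against 203 and 140.5 CPM (0.04 ± 0.18, adjusted p = 0.932). The 13 untested genes had 0 to 28 counts over the 4 libraries. The fibroblast marker sum, 121 to 147 CPM and 99.6 to 105 CPM, was lower with the UAB peptide beside these changes. Within it MFAP5 fell from a mean of 10.47 to 1.26 CPM, LUM fell from 39 counts to 0 and POSTN rose from 0.688 to 3.55 CPM, while FBLN1, at 120.3 and 94.7 CPM, did not pass (adjusted p = 0.124). The immune marker sum was 9.43 to 11.2 CPM and then 4.30 to 4.94 CPM, with CD14 at 6.29 and 1.00 CPM, and the endothelial sum was 11.99 to 14.4 and then 17.1 to 23.0 CPM. The part of these markers was not tested.

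**Figure D5:**
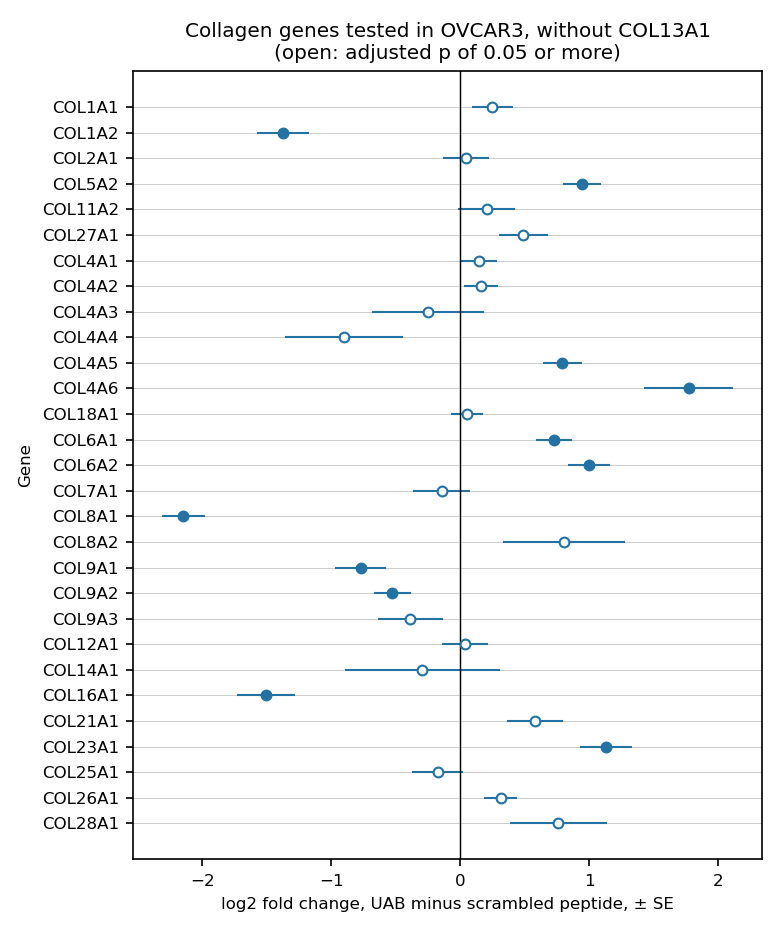
Log2 fold change with SE of the tested collagen genes in OVCAR3, UAB peptide minus scrambled peptide; filled points have an adjusted p below 0.05. COL13A1 is left out because of its 3 counts in the control; COL8A1 is the lowest at -2.15 and COL4A6 the highest at 1.77.

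Of the 12 collagens called in OVCAR3, 9 were also tested in SKOV3, and their log2 fold changes are set side by side with the UAB peptide first, then with RSF1 and RSF1delUAB against control. COL8A1 was at -2.15, 3.29 and 2.14, and COL1A2 at -1.37, 1.33 and 2.55. COL16A1 was at -1.50, 1.83 and -0.98. COL5A2 was at 0.95, -2.19 and -2.03. COL6A1 was at 0.73, 3.19 and 3.15, and COL6A2 at 1.00, 2.67 and 2.90. Among the genes that passed the SKOV3 filter through some groups only, COL23A1 was at 1.13, 2.89 and 4.75, COL9A2 at -0.53, 2.66 and 2.52, and COL4A5 at 0.79 with the peptide and at 2 and 0 counts with the constructs. The difference between the lines was not tested.

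Collagen chains need a large set of enzymes and chaperones before and after secretion, and 4 lists of such genes were read from the same fits. The list of synthesis and folding genes, 23 of 24 tested in SKOV3, had 14 higher and 5 lower with RSF1 (median log2 fold change 0.52) and 14 higher and 7 lower with RSF1delUAB (median 0.22). These and the following list counts stand against 34.3% higher and 32.9% lower of all genes with RSF1 and 34.5% and 32.1% with RSF1delUAB. Of the 23, FKBP10 passed the filter through the constructs only. SERPINH1, the collagen chaperone HSP47 of the endoplasmic reticulum, went from 68.8 CPM in control to 399 and 327 CPM, with log2 rises of 2.54 ± 0.07 and 2.25 ± 0.07. P3H2, which hydroxylates prolines of collagen IV, rose by 1.93 ± 0.07 and 1.33 ± 0.07. PLOD2, which hydroxylates lysines for cross-links, rose by 1.46 ± 0.07 and 1.00 ± 0.07. P3H4, a partner of lysyl hydroxylase, was called with RSF1delUAB (1.20 ± 0.07) and not with RSF1 (0.16 ± 0.07, adjusted p = 0.0705). PLOD3 was lower by log2 fold changes of -1.21 ± 0.09 and -1.31 ± 0.09, and TMEM38B, a potassium channel of the endoplasmic reticulum, by -1.26 ± 0.09 and -1.29 ± 0.09. CRTAP, a partner of prolyl hydroxylase, was at -0.57 ± 0.06 and -0.54 ± 0.06.

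Of 15 genes for processing and cross-linking, 11 were higher and 1 lower with RSF1 (median 1.24), and 11 higher and 3 lower with RSF1delUAB (median 2.22), where 67.3% and 66.6% of all genes were called in either direction. Of the 15, 12 were above the filter in every group, with 9 higher and 3 that did not pass with RSF1, and 10 higher and 1 lower with RSF1delUAB; TLL1 passed through the constructs only, and ADAMTS3 and LOXL4 through control and RSF1. The single lower gene with RSF1 became 2 without RSF1 replicate 1 and 3 without RSF1 replicate 3. LOX, the lysyl oxidase that starts cross-links, rose from 22.6 CPM to 198 and 105 CPM, by 3.13 ± 0.07 and 2.22 ± 0.07 on the log2 scale. PXDN, the peroxidase that cross-links collagen IV, rose from 28.7 CPM to 314 and 400.1 CPM, by 3.46 ± 0.10 and 3.80 ± 0.10. LOXL1 rose by 2.45 ± 0.10 and 2.77 ± 0.10. ADAMTS3, which removes the end of fibrillar procollagen, fell, with log2 fold changes of -3.58 ± 0.18 and -5.10 ± 0.21. LOXL2 and LOXL4 were lower with RSF1delUAB (-0.38 ± 0.07 and -2.24 ± 0.43) and higher with RSF1 (0.40 ± 0.07 and 1.24 ± 0.30).

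Of 10 collagen receptors 8 were tested, with 5 higher and 3 lower with RSF1, and 4 higher and 3 lower with RSF1delUAB. In the 6 above the filter in every group, 4 were higher and 2 lower with each construct. DDR2 passed through control and RSF1. GP6 passed through RSF1 only, so its higher value with RSF1 follows from that filter. MRC2, which takes up collagen fragments, rose by 1.66 ± 0.08 and 2.36 ± 0.08, the integrin chain ITGA1 by 1.62 ± 0.10 and 1.85 ± 0.09, and the receptor kinase DDR1 by 0.69 ± 0.08 and 0.91 ± 0.08. Its relative DDR2, which binds fibrillar collagen, was at -2.94 ± 0.28 and -3.51 ± 0.29, and the integrin chains ITGA10 and ITGB1 were also lower with both. Of 6 collagenases and gelatinases, 3 were above the filter in every group and higher with each construct (MMP1, MMP2 and MMP14), and MMP13 passed through the constructs only. MMP2, which cleaves collagen IV and gelatin, rose by 4.66 ± 0.09 and 4.32 ± 0.09, and MMP1, which cleaves fibrillar collagen, by 1.64 ± 0.07 and 4.75 ± 0.08. MMP13 was at log2 fold changes of 2.44 ± 0.56 and 2.67 ± 0.54 from 0.132 CPM in control.

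Between RSF1 and RSF1delUAB, 8 of 23 synthesis genes were higher and 1 lower with RSF1, against 18.5% higher and 20.2% lower of all genes. They were led by P3H2 (0.60 ± 0.06), CREB3L1 (1.50 ± 0.20) and P4HA2 (0.49 ± 0.07), with P3H4 lower (-1.04 ± 0.07). Of the 15 processing genes 5 were higher and 6 lower, and of the 12 above the filter in every group 3 were higher and 6 lower. LOX was higher by 0.92 ± 0.06 and LOXL2 by 0.78 ± 0.07, while SPARC, a collagen-binding glycoprotein, was lower (-2.80 ± 0.14). LOXL4, which passed the filter through control and RSF1 only, was at 3.48 ± 0.38, given as a value. Of the 8 receptors 3 were higher and 4 lower, the 4 becoming 2 with upper quartile scaling or without RSF1delUAB replicate 3. In the 6 receptors above the filter in every group, 2 were higher and 4 lower. MMP1 was lower with RSF1 (-3.12 ± 0.07) and MMP2 higher (0.33 ± 0.07).

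In OVCAR3 10.9% of all genes were called in either direction. Of 24 synthesis genes, CREB3L1, a transcription factor of collagen genes, rose (1.67 ± 0.46, adjusted p = 0.0299) and P3H2 fell (-2.40 ± 0.24, adjusted p = 1.37e-05). The CREB3L1 call was lost with DESeq2 and without UAB peptide replicate 2 or scrambled peptide replicate 1, when 0 genes of the list were higher. Of 14 tested processing genes SPARC (2.97 ± 0.20), LOXL1 (0.70 ± 0.14) and PCOLCE2 (0.72 ± 0.22) rose. Of 8 tested receptors DDR2 fell (-0.69 ± 0.17, adjusted p = 0.0179); 0 were lower without UAB peptide replicate 2 or scrambled peptide replicate 1, and 2 without scrambled peptide replicate 2. None of 4 tested collagenases and gelatinases passed in edgeR, DESeq2 or limma-voom, while 3 had an unadjusted p below 0.05 in edgeR (MMP1 at 0.00897, MMP2 at 0.043 and MMP14 at 0.0456). In edgeR 1 was lower without UAB peptide replicate 1, without scrambled peptide replicate 1 or 2, with no count filter, and with the replicate block.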

How the data were processed

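The authors deposited a table of raw gene counts for each cell line, and these counts entered every fit unchanged. FastQC, STAR 2.7.9a and Subread are named in the submitters' processing notes, with the builds GRCh38, hg38 and GRCm38; the strand setting of the counting is not given in the sources used here. Symbols came from a name table that matched 62625 of 62703 genes, and 1 split record (ANK2) was rejoined. The name of the column taken for replicate 2 of the scrambled peptide holds an extra letter, which the labels leave unexplained.

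Each line was fitted whole with edgeR 4.0.16 in R 4.3.3, with TMM scaling, filterByExpr at a minimum count of 10 and the quasi-likelihood test. Every group of that line entered the same fit. Adjustment was by Benjamini-Hochberg, over all genes tested in a comparison (16735 in SKOV3 with 6 residual degrees of freedom, 18359 in OVCAR3 with 2), with a threshold of 0.05. Log2 fold changes use a prior count of 0.125, and SE is the absolute fold change over the root of F. RPKM is TMM-scaled CPM over exon length of the tables. Where a group had 0 counts, its fold was bounded by taking 3 counts for that whole group; counting intervals are at 95% and cover counting error only.

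The members and lists were chosen with earlier results of these data known. Values per library are given for the chains of shared loci or heterotrimers, and in each comparison for the 4 largest rises and falls past the threshold with a mean of at least 1 CPM in the higher group and no overlap. Of each pathway list, up to 3 higher and 3 lower members are named, by smallest adjusted p. Alternatives were other scalings (RLE, upper quartile, library totals), DESeq2 1.42.0, limma-voom 3.58.1, no count filter or a minimum of 30, only the 2 groups compared, a block for the replicate number, and leaving out each library. The fits were tested on simulated data.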

Additional observations from a re-analysis of the deposited data

How the results depend on the processing

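Of 823 fold changes of single collagens under other settings, 815 kept their direction and side of the threshold, 8 lost their call and 0 reversed; with 1 library left out, 486 of 515 kept both, 27 lost and 2 gained a call, and 0 reversed. With 1 library left out, RSF1 against control had 17 to 19 higher and 5 to 6 lower collagens, RSF1delUAB against control 13 to 17 and 5 to 7, RSF1 against RSF1delUAB 7 to 9 and 5 to 8, and the UAB peptide 6 to 7 and 3 to 5. Only the last moved by over 1.5 times, to 3 lower genes without OVCAR3 UAB replicate 1 or scrambled peptide replicate 1. The fits with 1 library left out tested more genes than the main fits, so their counts can include collagens not tested before. Over the other settings, with genes above the filter in every group counted alone as 1 of them (added after the data were seen), the counts in the same order were 13 to 20 and 4 to 7, 11 to 18 and 5 to 9, 7 to 9 and 5 to 8, and 6 to 10 and 4 to 5. Replicate numbers did not pair the SKOV3 libraries (correlations of -0.0824 to 0.117 for the deviations of same-numbered libraries). With the replicate block, COL9A2 in OVCAR3 lost its call (-0.54, adjusted p = 0.0815), leaving 4 lower genes, and no other collagen call changed. In OVCAR3 that correlation was -0.278, and 0.278 for libraries paired crosswise. A crossed pairing, added after the data were seen, called 10 collagens higher and 5 lower, and 2560 and 2537 of all genes against 1001 and 1003. Because this pairing was picked with the data known, its larger counts add no support. With 2 libraries a group, small changes in OVCAR3 are hard to detect, and genes under the count filter were not tested.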
